A study of Homo sapiens with 2 samples.

Results

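Peaks just downstream of a transcription start site (TSS) were taken from a genome-wide map of JARID2 in MDA-MB-231 cells, a human triple-negative breast cancer line. They were the peaks that the authors placed in the promoter class with a positive distance to the TSS, so that each began after the start site, within 3 kb of it, and did not overlap it. There were 5040 such peaks, 7.51% of the 67071 in the list, given to 4582 genes. The rule used position only and no value of the ChIP signal. The study held 1 library of chromatin precipitated with a polyclonal antibody against JARID2 from untreated cells and 1 library of input DNA from untreated cells of the same line. Values of the ChIP library's peaks were analysed, and values of the input library were not analysed here. With 1 ChIP library there was no replicate check, and no test between groups of samples was possible. Coordinates of peaks are on hg19, and the fold enrichment, tag count and false discovery rate (FDR) of each peak are the values the authors gave it.

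JARID2 is an accessory subunit of Polycomb repressive complex 2 (PRC2), the enzyme complex that methylates histone H3 at lysine 27. In embryonic stem cells JARID2 helps bring PRC2 to CpG-rich promoters of developmental genes. The stretch after a start site holds the opening exon and intron of a gene, is often CpG-rich where the promoter is, and is where RNA polymerase II pauses early in transcription.

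The promoters of 5 genes are shown because these genes had the strongest downstream peaks at an FDR of at most 5% that began within 1 kb of the start of a protein-coding transcript, near the most upstream start listed for the gene, apart from TIGD5 (13.82-fold), whose promoter is not shown. The sequences are from RefSeq on GRCh38.p14, run 5′ to 3′ on the gene's strand over 300 bases that end 50 bases after the RefSeq start, and capitals mark the GC box GGGCGG or its reverse complement CCGCCC. The windows were chosen by gene symbol, and their positions were not compared with those of the peaks, which are on hg19. The RefSeq start may lie far from the start the authors named, so a window need not be the promoter next to the peak. At LAMA3, for example, a start in the list lies 183397 bp after the most upstream one.
TOPBP1 (chr3:133661892-133662191, minus strand): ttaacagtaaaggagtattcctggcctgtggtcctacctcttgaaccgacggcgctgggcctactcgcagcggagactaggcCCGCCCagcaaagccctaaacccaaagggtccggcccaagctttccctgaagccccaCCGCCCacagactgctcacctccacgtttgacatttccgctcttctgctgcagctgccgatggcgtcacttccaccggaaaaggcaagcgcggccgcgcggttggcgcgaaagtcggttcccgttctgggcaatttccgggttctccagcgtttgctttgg
NEXMIF (chrX:74925403-74925702, minus strand): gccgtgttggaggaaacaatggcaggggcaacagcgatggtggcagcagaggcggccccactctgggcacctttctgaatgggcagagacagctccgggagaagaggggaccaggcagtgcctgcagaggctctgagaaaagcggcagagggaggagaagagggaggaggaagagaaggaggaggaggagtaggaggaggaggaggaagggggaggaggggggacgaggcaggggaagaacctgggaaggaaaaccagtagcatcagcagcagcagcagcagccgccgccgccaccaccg
LAMA3 (chr18:23872770-23873069, plus strand): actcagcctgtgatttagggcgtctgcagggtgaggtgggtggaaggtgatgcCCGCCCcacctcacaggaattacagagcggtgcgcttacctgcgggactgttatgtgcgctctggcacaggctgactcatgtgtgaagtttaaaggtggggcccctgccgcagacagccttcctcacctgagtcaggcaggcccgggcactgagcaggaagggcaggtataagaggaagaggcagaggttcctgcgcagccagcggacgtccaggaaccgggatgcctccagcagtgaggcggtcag
FZD5 (chr2:207769857-207770156, minus strand): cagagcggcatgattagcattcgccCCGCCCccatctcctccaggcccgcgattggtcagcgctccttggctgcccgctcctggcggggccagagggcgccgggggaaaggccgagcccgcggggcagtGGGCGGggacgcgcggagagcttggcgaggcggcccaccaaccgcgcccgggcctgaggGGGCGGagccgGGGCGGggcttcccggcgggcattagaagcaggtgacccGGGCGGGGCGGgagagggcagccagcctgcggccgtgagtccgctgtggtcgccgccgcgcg
NUP210 (chr3:13420273-13420572, minus strand): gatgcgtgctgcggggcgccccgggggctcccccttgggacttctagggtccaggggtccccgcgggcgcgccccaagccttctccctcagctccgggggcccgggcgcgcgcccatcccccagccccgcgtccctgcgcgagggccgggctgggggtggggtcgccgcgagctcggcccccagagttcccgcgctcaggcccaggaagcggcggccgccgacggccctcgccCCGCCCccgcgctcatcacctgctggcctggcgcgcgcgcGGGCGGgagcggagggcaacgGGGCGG

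These 5 promoters were unlike in composition. FZD5 had 38 CpG dinucleotides and 6 GC boxes in 300 bases, counting overlapping boxes, and NUP210 had 42 and 3. TOPBP1 had 24 CpGs and 2 GC boxes. LAMA3 had 13 CpGs and 1 GC box, and NEXMIF, listed under its older symbol KIAA2022, had 10 CpGs and 0 GC boxes. The ratio of observed to expected CpGs was 0.866 for FZD5, 0.847 for NUP210 and 0.882 for TOPBP1, against 0.467 for LAMA3 and 0.382 for NEXMIF. Both CpG-rich and CpG-poor windows were thus among the 5, but whether each stands next to its peak was not checked.

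Peaks downstream of a TSS were mostly weak, and peaks that overlapped a TSS had a like median fold enrichment but more tags. Of the 5040 downstream peaks, 60 had an FDR no higher than 5% (1.19%, 95% exact interval 0.910 to 1.53), against a background of 1.24% over all peaks. The share was 12.4% (11.3 to 13.5) for the 3668 promoter peaks that overlapped a TSS and 1.52% (1.2 to 1.90) for the 5056 upstream promoter peaks. Peaks filed under introns had 0.325% (0.258 to 0.404). An FDR of 0 was given to 19 downstream peaks (0.377%), where the background over all peaks was also 0.377%. The downstream share was thus near the background of the whole list, and its interval overlapped that of upstream promoter peaks, lay below that of peaks over a TSS and lay above that of intron peaks. The intervals are Clopper-Pearson intervals of counting error alone. They treat peaks as independent and, with 1 ChIP library, hold no variation between libraries. Tags are reads, and reads copied by PCR do not count separate molecules.

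The median downstream peak had a fold enrichment of 5.85 (interval of the median 5.82 to 5.94, interquartile range 5.14 to 6.82), against 5.99 for peaks over a TSS, 5.92 upstream and 5.95 over all peaks. It held 13 tags (interquartile range 11 to 17), against 21 for peaks over a TSS and 13 upstream. It was 522 bp wide, against 720 bp for peaks over a TSS and 514 bp upstream. Downstream peaks thus differed little from upstream ones in the middle of their range, and from peaks over a TSS mainly in tags and width. Overlap with the TSS decided the class, wider peaks overlap a given site more readily, and the part of width in the difference in tags was not tested.

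**Figure D1:**
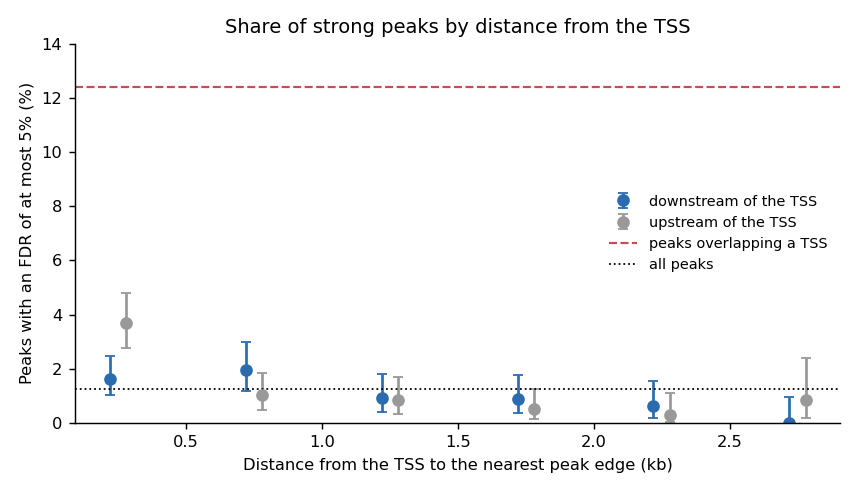
Share of peaks with an FDR of at most 5% (y axis, percent) in 500 bp bins of the distance from the TSS to the nearest peak edge (x axis, kb), for downstream (blue) and upstream (grey) promoter peaks. Bars are 95% exact binomial intervals, the dashed line is the 12.4% of peaks overlapping a TSS and the dotted line the 1.24% of all peaks. Within 500 bp the downstream share was 1.62% and the upstream share 3.67%. The bins lack 392 downstream and 366 upstream peaks at minus-strand transcripts that the deposited distance put in other classes.

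Close to the start site, strong peaks, meaning those under the 5% FDR limit, made up a smaller share downstream than upstream. Measured from the nearest peak edge, 21 of 1293 downstream peaks within 500 bp of the TSS reached an FDR of 5% (1.62%, 1.01 to 2.47), against 51 of 1388 upstream peaks (3.67%, 2.75 to 4.80). From 500 bp to 1 kb the order was the other way, at 20 of 1029 downstream peaks (1.94%, 1.19 to 2.99) and 10 of 990 upstream peaks (1.01%, 0.485 to 1.85). Between 2 and 2.5 kb there were 4 of 658 downstream (0.608%) and 2 of 660 upstream (0.303%). In the last 500 bp, 0 of 387 downstream peaks reached the limit, for which the upper bound of the interval was 0.949%. The intervals of downstream and upstream peaks were apart in the bin nearest the TSS, and they overlapped in the other 5 bins. With the distance as deposited the bin nearest the TSS gave 1.90% (1.04 to 3.17) downstream and 3.32% (2.18 to 4.83) upstream, and these intervals overlapped.

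The deposited distance was measured differently on the 2 strands, which set where in the promoter bins a peak was counted. At plus-strand transcripts it ran to the peak edge nearest the TSS for 32626 of 32626 peaks not overlapping it, within 1 bp. At minus-strand transcripts it ran to the far edge for 30777 of 30777, and to the nearest edge for 0. As deposited, 1232 of 2819 plus-strand downstream peaks (43.7%) lay within 1 kb, and 485 of 2221 minus-strand ones (21.8%). From the nearest edge the same peaks gave 43.8% on the plus strand and 48.9% on the minus strand. The median distance was 1185 bp on the plus strand and 1626 bp on the minus strand as deposited, and 1184 bp and 1032 bp from the nearest edge.

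**Figure D2:**
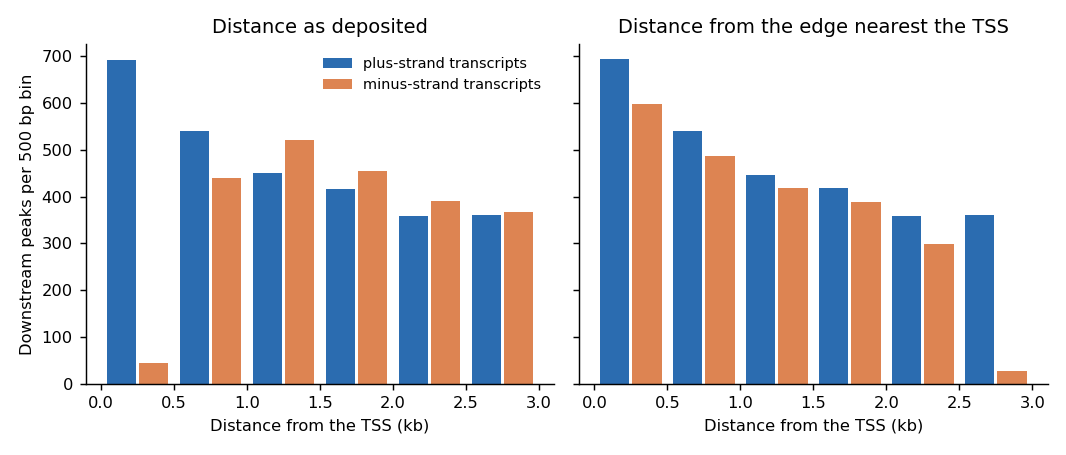
Number of downstream peaks in 500 bp bins of distance from the TSS (x axis, kb) at plus-strand (blue) and minus-strand (orange) transcripts, with the distance as deposited (left) and from the peak edge nearest the TSS (right). As deposited, the bin up to 500 bp held 692 plus-strand and 45 minus-strand peaks, and from the nearest edge 694 and 599.

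The far-edge distance also moved peaks out of the class. In the list, 392 further peaks, all at minus-strand transcripts, began within 3 kb downstream of their TSS by the nearest edge but were filed under another class. Their median fold enrichment was 5.76, and 6 of them had an FDR of at most 5%. With these peaks the class would hold 5432, of which 1.22% had an FDR of at most 5%. From the nearest edge on both strands, the number of downstream peaks per 500 bp bin fell off with distance, with 1293 in the bin nearest the TSS, 866 from 1 to 1.5 kb and 658 from 2 to 2.5 kb among the 5040. The 392 peaks are not in these counts. At plus-strand transcripts alone, where none were left out, the same bins held 694, 447 and 359.

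Many of these peaks lay past the end of the transcript they were named for. The promoter class took in 3 kb whatever the length of the transcript, and 1948 downstream peaks (38.7%) were named for a transcript shorter than that. Of all 5040, 1216 (24.1%, 23 to 25.3) began beyond the transcript's end and a further 308 (6.11%) ran over it. The label of peaks inside the transcript held, in whole or in part, for the 3824 not wholly beyond the end, the 308 among them. Transcripts whose peak lay beyond the end had a median length of 386 bp, against 13018 bp for those of the 3824. The 5% FDR limit was met by 3 of the 1216 peaks beyond an end (0.247%, 0.0509 to 0.719) and by 57 of the 3824 that reached into the transcript (1.49%, 1.13 to 1.93). Of those 57, 13 were among the 308 that ran over an end (4.22%, 2.27 to 7.11).

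**Figure D3:**
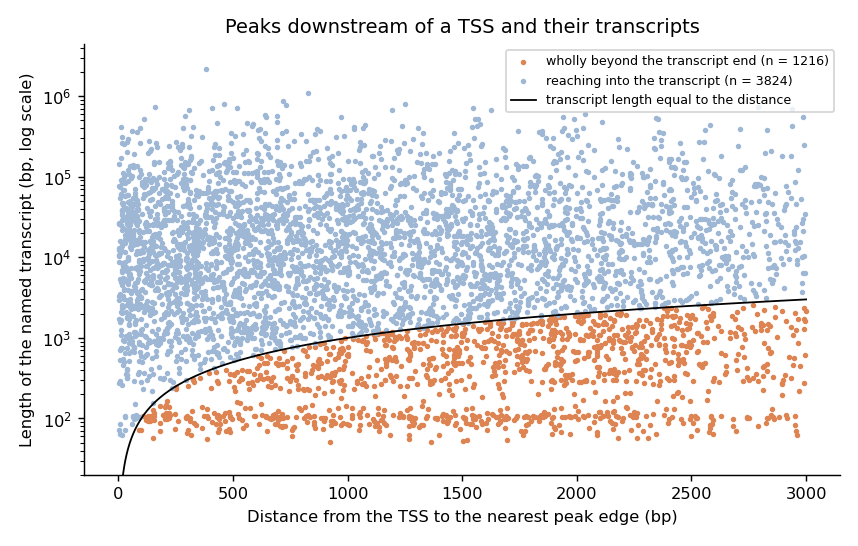
Length of the named transcript (y axis, bp, log scale) against the distance from the TSS to the nearest peak edge (x axis, bp) for the 5040 downstream peaks. The 1216 orange points lie under the line where length equals distance, so the peak starts past the end of the transcript, and a band of them stands near a transcript length of about 110 bp, their lower quartile.

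The share of peaks beyond a transcript end differed between gene types. Among 3050 downstream peaks given to a protein-coding gene, 5.93% lay beyond the end. The share was 74.2% for 450 pseudogene peaks, 91.8% for 61 microRNA peaks and 10.3% for 117 peaks of long non-coding RNAs in RefSeq. Symbols of 1313 peaks were not matched to the RefSeq table, and 590 of these (44.9%) lay beyond the end, so the type of many peaks beyond an end is not known. Protein-coding genes took 60.5% of downstream peaks, against 81.2% of peaks over a TSS and 58.5% of upstream peaks. They also held 49 of the 60 downstream peaks at an FDR of at most 5%.

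Small RNA genes, whose transcripts are far shorter than the reach of the promoter class, took 369 downstream peaks (7.32%, 6.62 to 8.08), and 340 of these lay wholly beyond the RNA. They took 2.70% of peaks over a TSS, 7.73% of upstream peaks and 9.59% of all peaks. Copies of Pol III small RNAs (U6, 7SK, Y RNA and 5S ribosomal RNA) led with 162 peaks, then microRNAs and small nucleolar RNAs with 66 each. Their median fold enrichment was 5.79, and 1 of the 369 had an FDR of at most 5%. It was named for RN7SL353P, a copy of the 7SL RNA of the signal recognition particle, and had 11.39-fold enrichment with 78 tags and an FDR of 0 (chromosome 6, 30719482 to 30720806). The peak started 667 bp after the start of that copy, which is 248 bp long.

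**Figure D4:**
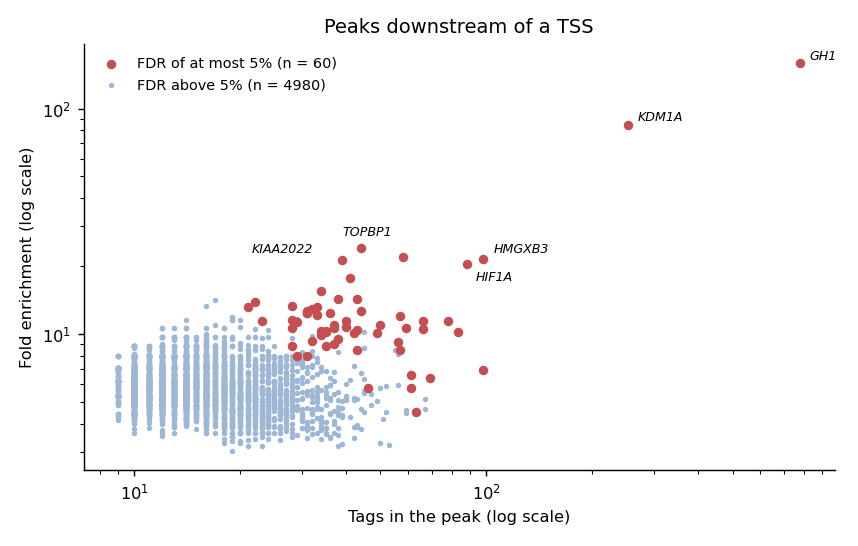
Fold enrichment (y axis, log scale) against tags (x axis, log scale) for the 5040 downstream peaks, with the 60 at an FDR of at most 5% in red. GH1 (158.75 and 779 tags) and KDM1A (84.67 and 253 tags) stand apart, and the next peak, TOPBP1, has 24.01.

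The downstream peaks of largest fold enrichment were named for GH1, KDM1A and TOPBP1, followed by RP11-191N8.2, HMGXB3, NEXMIF and HIF1A. Those of KDM1A and HIF1A lay far from the most upstream start listed for their gene. The peak named for GH1, the growth hormone gene, had the largest fold enrichment of the whole list, 158.75 with 779 tags. Its 1217 bp (chromosome 17, 61993755 to 61994971) overlapped the named transcript of 1175 bp by 118 bp, and its summit lay 442 bp past the transcript's end. The peak at KDM1A, which encodes the histone lysine demethylase LSD1, had 84.67 with 253 tags (chromosome 1, 23409610 to 23410322). Its named transcript is 2810 bp long and starts 61425 bp after the most upstream KDM1A start in the list, and the peak ran over the end of that transcript. It also ran over the end, at 23410182, of the 64242 bp transcript from the most upstream start, so it lay at the end of the gene. A second KDM1A peak of the class had 15.46 with 34 tags and an FDR of 0, and the last had 6.47 with 9 tags and an FDR of 45.6%. KDM1A held 11 peaks in the whole list, 8 of them at or under the 5% limit, where the median gene symbol held 2, and the peak over its most upstream start had 77.61 with 193 tags. Among the strong ones, those of 27.98 and 23.19 were filed under exons 2 and 9 of 19, and the others in the promoter class. Without the 3 KDM1A peaks the share at an FDR of at most 5% was 1.15%, and none of the downstream peaks was given to JARID2 or EZH2.

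HIF1A, which encodes the oxygen-regulated subunit of hypoxia-inducible factor, had 3 downstream peaks, each under the 5% FDR limit. They had fold enrichments of 20.35, 17.63 and 12.38, with 88, 41 and 31 tags and FDRs of 0, 0.35% and 1.09%. Their named transcripts were 838, 4299 and 1229 bp long and started 44548, 41377 and 30908 bp after the most upstream HIF1A start in the list. All 3 therefore lay far inside the gene, next to short internal transcripts. No HIF1A peak in the list overlapped that most upstream start, and the gene held 6 peaks in all.

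TOPBP1, which encodes a scaffold of the ATR DNA damage checkpoint, had 24.01 with 44 tags and an FDR of 0 (chromosome 3, 133373785 to 133374611). This peak stood 987 bp from the start of its named transcript by its nearest edge, and that transcript began 4 bp after the most upstream one listed. Starts with no peak named for them were not seen, so the most upstream one listed need not be the first of the gene. The RefSeq promoter shown for TOPBP1 was not placed against it. Other downstream peaks of TOPBP1 had 9.92 (FDR 19.7%) and 8.7 (FDR 38.6%). TOPBP1 held 19 peaks in the whole list along its length, 8 of them under the 5% limit and the highest at 49.03. That highest peak was filed under exon 11 of 28. Strong peaks of 29.14 and 16.46 were filed under exons 14 and 12, and the other strong ones in the promoter class. What underlies these peaks was not tested. Without the downstream peaks of GH1, KDM1A, TOPBP1 and HIF1A, an alternative chosen after seeing the data, 1.05% of downstream peaks met the 5% limit and 0.278% had an FDR of 0. HMGXB3, which encodes an HMG-box protein, had 21.6 with 98 tags and an FDR of 0 (chromosome 5, 149428779 to 149430527). The peak named for RP11-191N8.2 had 21.95 with 58 tags and an FDR of 0. NEXMIF, a neurite extension and migration factor gene, had 21.19 with 39 tags and an FDR of 0, and this peak began 543 bp into a transcript of 192599 bp. VGF, which encodes a neuropeptide precursor, had 14.22 with 43 tags and an FDR of 0.

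By the nearest edge, 41 of the 60 strong downstream peaks began within 1 kb of the start. Over all downstream peaks the share within 1 kb by that measure was 43.8% at plus-strand and 48.9% at minus-strand transcripts. LAMA3, the laminin alpha-3 chain gene of basement membranes, had 14.22 with 38 tags and an FDR of 0, 93 bp after its start (chromosome 18, 21269741 to 21270526). RNF4, a SUMO-targeted ubiquitin ligase gene, had 14.13 with 17 tags, 104 bp after its start, and an FDR of 9.69%. TIGD5, a gene derived from a transposase, had 13.82 with 22 tags, 130 bp after its start, and an FDR of 1.09%. FZD5, a frizzled receptor for WNT ligands, had 13.25 with 28 tags and an FDR of 0.48%, 585 bp after its start. NUP210, a nuclear pore membrane protein gene, had 13.17 with 33 tags and an FDR of 0.29%, 368 bp after its start. Apart from HIF1A, no downstream peak within 1 kb as deposited reached the 15.46 of the second KDM1A peak. A high fold enrichment on few tags, as at RNF4 (95% Poisson interval of its 17 tags 9.90 to 27.2), did not bring a low FDR.

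Among the downstream peaks with most tags, some had fold enrichments far below those of GH1 and HMGXB3. GLTSCR1L, a BAF chromatin remodelling subunit gene, had 98 tags (95% Poisson interval 79.6 to 119) over 2687 bp, the widest downstream peak, at 6.9-fold and an FDR of 0.49%. TPCN1, an endolysosomal cation channel gene, had 83 tags at 10.21-fold and an FDR of 0. SLC16A3, which encodes the lactate transporter MCT4, had 69 tags at 6.37-fold and an FDR of 0. EPAS1, which encodes the hypoxia factor HIF-2 alpha, had 67 tags at 4.66-fold and an FDR of 12.2%, and RP11-410N8.4 also had 67, at 5.14-fold and an FDR of 10.5%. These 5 peaks were 1473 to 2687 bp wide, and so was the HMGXB3 peak at 1749 bp with its 21.6-fold enrichment.

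Further genes among the 60 strong downstream peaks were chosen for naming after their values were seen. SOX4, an SRY-box transcription factor gene, had 2 such peaks, at 10.07 with 49 tags and an FDR of 0.37%, and at 8.49 with 43 tags and an FDR of 3.13%. The peak over a SOX4 start in the same list had 4.21 with 27 tags and an FDR of 35.4%, so the downstream peaks were the taller ones there. KDM4E, a histone H3 lysine 9 demethylase gene, had 9.24 with 56 tags and an FDR of 0. SREBF2, the sterol-sensing transcription factor gene, had 10.31 with 35 tags and an FDR of 0.36%, 9 bp after its start. PHOX2A, a homeobox gene of autonomic neurons, had 10.7 with an FDR of 3.98%, and ITGB6, the integrin beta-6 gene, had 9.02 with an FDR of 1.16%.

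PRC2 and PRC1 genes had shares with a downstream peak at or above that of all protein-coding genes, with wide intervals that held it, and 1 of these peaks met the 5% FDR limit. In the background, 13.3% of 20037 protein-coding genes had a downstream peak and 0.225% had 1 at an FDR of at most 5%. Among 14 genes of PRC2 subunits, 2 had a downstream peak (14.3%, 1.78 to 42.8) and 6 had a peak over a TSS. MTF2, a Polycomb-like subunit gene, had 2 peaks, at 7.66 with 21 tags and an FDR of 24.7%, and at 5.42 with 14 tags and an FDR of 41.7%. PHF19, another Polycomb-like subunit gene, had 4.85 with 13 tags and an FDR of 48.2%. Among 26 genes of PRC1 subunits, 6 had a downstream peak (23.1%, 8.97 to 43.6). MGA, a DNA-binding subunit gene of a variant PRC1, had 9.46 with 38 tags and an FDR of 0.34%. Its named transcript starts 39188 bp after the most upstream MGA start in the list. A taller peak over the start of that transcript, 229 bp away, had 11.61 with 62 tags and an FDR of 0. BCOR, a co-repressor subunit gene, had 6.18 with an FDR of 45.5%, and PHC3, a Polyhomeotic gene, had 5.73 with an FDR of 48.1%.

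Developmental genes were near or under that background. HOX cluster genes, which pattern the body axis, had 2 of 39 (5.13%, 0.627 to 17.3): HOXA3 at 6.06 and HOXD8 at 4.42, with FDRs of 47.0% and 48.1%. Among other developmental transcription factor genes, 11 of 104 had a downstream peak (10.6%, 5.40 to 18.1), with none at an FDR of at most 5%. TFAP2B led at 7.92 with an FDR of 37.8%, then LHX4 at 6.93 (18.8%) and MEIS1 at 6.77 (46.9%). The median of the highest downstream fold enrichment per gene was 6.10 in this list, against 5.99 over all protein-coding genes with a downstream peak.

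Epithelial adhesion and identity genes had the largest share of the 14 lists, 10 of 38 (26.3%, 13.4 to 43.1), but none at an FDR of at most 5%. OVOL1, a transcription factor gene of epithelial identity, had 8.73 with 17 tags and an FDR of 19.0%, ST14, which encodes matriptase, had 7.66 (37.1%), and LLGL2, a cell polarity gene, had 7.06 (48.8%). The list's median of the highest fold enrichment was 5.76, below the 5.99 over all genes. Mesenchymal genes had 5 of 34 (14.7%), led by the integrin gene ITGAV at 8.0, the collagen gene COL5A1 at 7.67 and SNAI1, an epithelial-mesenchymal transition factor gene, at 7.12, with FDRs of 39.6%, 30.5% and 29.3%. Hypoxia response genes had 7 of 32 (21.9%, 9.28 to 40), of which HIF1A reached an FDR of at most 5%. After HIF1A came NDRG1 and the glycolysis regulator gene PFKFB3, both at 7.06 with FDRs of 45.3% and 43.5%.

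**Figure D5:**
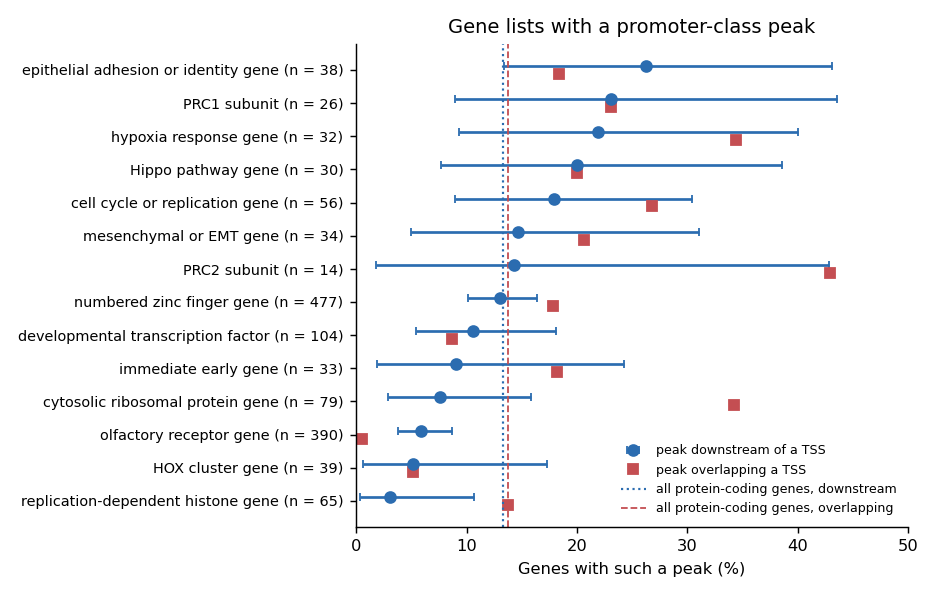
Percent of genes in each list with a peak downstream of a TSS (blue circles, with 95% exact binomial intervals) and with a peak overlapping a TSS (red squares), beside the same shares over all protein-coding genes (blue dotted line at 13.3% and red dashed line at 13.8%). Ribosomal protein genes stand far apart in the 2 shares, at 7.59% downstream and 34.2% overlapping, and olfactory receptor genes in the other direction, at 5.90% and 0.513%. The downstream share takes in up to 3 kb and the overlapping share a single position, so the 2 are not like measures.

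In 2 of the 14 lists the intervals of the downstream and the TSS-overlapping share were apart, and in the other 12 they overlapped. The downstream share counts peaks over up to 3 kb, and the overlapping share those that cover a single position. Scattered peaks would therefore raise the downstream share more, and the part of this was not tested. The shares were equal for PRC1, HOX and Hippo pathway genes. Cytosolic ribosomal protein genes, short and highly transcribed in growing cells, had a downstream peak at 6 of 79 genes (7.59%, 2.84 to 15.8), and a peak over a TSS at 27 of 79 (34.2%, 23.9 to 45.7). Their highest downstream peaks were 5.82 at RPL3, 5.6 at RPL6 and 5.3 at RPL39, with FDRs of 46.0%, 46.3% and 45.9%. Olfactory receptor genes, which are silent in most tissues outside the nose, had a downstream peak at 23 of 390 (5.90%, 3.77 to 8.72) and a peak over a TSS at 2 of 390 (0.513%, 0.0622 to 1.84). OR5H15 led at 7.58 with 15 tags and an FDR of 37.3%, before OR4C46 and OR52N1 at 7.06. These peaks began 2015, 1521 and 50 bp after the start. In neither list did a downstream peak reach an FDR of 5%, and in both the intervals of the 2 shares were apart. Olfactory receptor genes have near-identical copies, so reads may be split between them, and their peaks are uncertain to that extent.

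Replication-dependent histone genes, which also have near-identical copies, had 2 of 65 (3.08%, 0.375 to 10.7), H4C5 at 3.64 and H2BC17 at 3.61, with FDRs of 48.2% and 40.9%. Numbered zinc finger genes had 62 of 477 (13.0%), close to the background, with 2 at an FDR of at most 5%. These were ZNF347 at 12.61 with 44 tags (FDR 0.3%) and ZNF787 at 12.36 with 36 tags (FDR of 0), and ZNF875 followed at 9.2 (14.8%). Cell cycle and replication genes had 10 of 56 (17.9%), led by TOPBP1, the single gene of the list under the 5% limit, then the origin recognition gene ORC6 at 7.95 (31.5%) and the anaphase-promoting complex activator gene FZR1 at 6.74 (34.1%). Immediate early genes had 3 of 33 (9.09%), namely EGR2 at 7.95 (39.7%), DUSP1 at 6.56 and SRF at 3.28 (41.7%). DUSP1, a MAP kinase phosphatase gene, held 61 tags with an FDR of 0.35%. Hippo pathway genes had 6 of 30 (20%), led by TAOK1 at 7.11 (34.0%), VGLL4 at 7.0 (20.4%) and TEAD1 at 6.17 (23.7%).

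How the share of genes with a peak over a TSS compared with a background depended on the background. Of 4582 genes with a downstream peak, 510 (11.1%) also had a peak over a TSS, where 3457 of all 26958 genes with a peak (12.8%) did. For genes with an upstream promoter peak it was 513 of 4662. The 26958 genes include those listed only for a peak over a TSS, which raises that background. Among downstream peaks of protein-coding genes, 17.8% (16.5 to 19.2) were at a gene with a peak over a TSS. Of all 20037 protein-coding genes, with or without a peak, 13.8% (13.4 to 14.3) had 1. The first of these shares counts peaks and the second counts genes. At the level of the transcript, 103 of 5040 downstream peaks (2.04%, 1.67 to 2.47) were named for a transcript whose start was itself under a peak. Another peak stood within 1 kb of 489 downstream peaks (9.70%), and 17 of these 489 had an FDR of at most 5% (3.48%, 2.04 to 5.51), against 43 of the other 4551 (0.945%, 0.685 to 1.27). The intervals of these 2 shares were apart. For upstream peaks the same split gave 2.37% (1.19 to 4.19) against 1.44% (1.11 to 1.83). For peaks over a TSS it gave 10.9% (8.10 to 14.2) against 12.5% (11.4 to 13.7), and in both classes the intervals overlapped. Some genes, such as SOX4, gave more than 1 of the strong downstream peaks with a close neighbour, so these peaks are not independent.

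Most genes had a single downstream peak, 4185 of the 4582, and 346 had 2. ANK2, which encodes the membrane adaptor ankyrin-2, had the most with 5, between 5.5 and 6.93, and its lowest FDR was 43.8%. KIF25, a kinesin gene, had 4, led by 11.32 with an FDR of 4.55%. STIM1, which encodes a sensor of calcium in the endoplasmic reticulum, was among 8 genes with 4, and its peaks had values up to 8.6 with a lowest FDR of 31.5%. The named transcript began at the most upstream start listed for its gene in 3411 of 5040 downstream peaks (67.7%, 66.4 to 69.0), against 80.3% of peaks over a TSS and 77.5% upstream. It began over 3 kb further in for 1200 (23.8%). Only starts that appear in the list were compared, so starts of transcripts with no peak were not seen.

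Promoters of genes with a downstream peak held the GC box more often than the average promoter and had a slightly higher CpG ratio. In the other motifs searched they were close to the average. Promoter sequences were found for 2157 of 2660 protein-coding genes with a downstream peak (81.1%). Their median ratio of observed to expected CpGs was 0.761 (0.749 to 0.775), against 0.826 (0.817 to 0.835) for 2305 genes with a peak over a TSS, 0.761 for upstream peaks and 0.737 (0.730 to 0.743) over all 15843 protein-coding genes with a sequence. The GC box GGGCGG, on either strand, was in 73.4% of the downstream set, in 76.7% of the set over a TSS, in 71.9% of the upstream set and in 64.3% of all promoters. A motif counted for a gene if any of its RefSeq promoters held it, so genes with more promoters had more openings for a match. The E-box CACGTG was in 11.8%, 16.5% and 10.9%, the ETS-type letters CCGGAA in 26.7%, 35.1% and 26.6%, and the E2F-type letters TTTCCCGC in 2.60%, 4.73% and 2.65%. Both strands were searched, and the letters of these motifs can overlap. CCAAT was in 43.5% of the downstream set and 42.1% of all promoters, TATAAA in 12.5% and 12.4%, and GAGAGA in 29.2% and 26.4%. Apart from the GC box, each of these shares was within 3 points of that over all promoters. For the 40 genes with a strong downstream peak and a sequence, the median ratio of observed to expected CpGs was 0.771 (0.518 to 0.866). GGGCGG was in 77.5% of them, CCAAT in 42.5%, GAGAGA in 32.5%, TATAAA and CCGGAA in 22.5% each, CACGTG in 12.5% and TTTCCCGC in 2.50%. No interval was computed for these shares of only 40 genes. These are matches of letters in a window that ends 50 bases after a RefSeq start, which need not be the start named for the peak. The peaks themselves lay after the named start and not over it.

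At the edges of the rule the peaks were weak. Among those nearest to a start, at a deposited distance of 2 bp, were peaks at CUL4A, a ubiquitin ligase scaffold gene (5.28, 17 tags, FDR 34.0%), and SPPL2B, an intramembrane protease gene (5.14, 10 tags, FDR 48.0%). The farthest inside were at CLU, the clusterin gene, at 2999 bp (7.95, 16 tags, FDR 30.7%), and at the pseudogene CTAGE12P at 3000 bp (5.66, 11 tags, FDR 45.6%). Just outside, at 3001 bp, were peaks named for RP11-709A23.2 (6.47, 10 tags, FDR 48.2%) and CCNT1, a cyclin gene of transcription elongation (4.85, 10 tags, FDR 47.8%).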

How the data were processed

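JARID2 ChIP-seq peaks of 1 library were analysed. The submitters' processing notes name hg19 and the tools ChIPseeker, MACS2, MACS, bcl2fastq and Bowtie (version 0.12.8). Their settings and the use of the input were not given in the sources used here. Tags are raw counts of reads per peak, as deposited. Fold enrichment, a ratio on a linear scale, and the FDR, in percent, were used as deposited by the authors. A deposited score with an unreadable header was read as −log10 p multiplied by 10. Each deposited fold enrichment is discrete, and 9.40% of the downstream peaks share the value 6.18. The library depth is unknown.

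Distances to the nearest edge and the summit, transcript ends and shares of peaks were computed with pandas 2.3.3 and SciPy 1.17.1. Intervals of medians were exact binomial order-statistic intervals at 95%. The code was checked on simulated data. Symbols were matched to RefSeq (GRCh38.p14) for gene type and promoters only: 2661 of 4506 symbols of downstream peaks matched a protein-coding gene. No test was made, since there was 1 ChIP library. The members, lists and FDR limit were chosen with earlier results of these data known. The genes named were the 10 downstream peaks of largest fold enrichment, the 10 with most tags, the 4 strongest per kb, every PRC2 gene, up to 3 per other list, the 3 genes with most peaks and those at the edges. The rule for the promoters printed, the counts of neighbouring peaks, listed starts and gene types, and the comparison by strand were set after the data were seen. RP11-417J8.6, named by the rule, had 13.25-fold enrichment, 16 tags and an FDR of 22.25%.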

Additional observations from a re-analysis of the deposited data

How the results depend on the processing

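Of 132 values recomputed under other settings, 85 stayed within the interval of the value reported and 47 did not. Settings on the strand, the nearest edge, an FDR of at most 5% and the leading genes were chosen after seeing the data. Another 3 values are fixed by their setting and were left out.

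With a score of at least 50, 8.72% of downstream peaks had an FDR of at most 5% and 2.76% an FDR of 0, with medians of 7.06-fold, 21 tags and 718 bp, 38.8% within 1 kb, 20.9% beyond the transcript end and 14.7% at genes with a peak over a TSS. In the top 25% of all peaks by fold enrichment these were 4.42%, 1.45%, 7.35-fold, 512 bp and 36.4% within 1 kb. Up to 1 kb, 1.57% had an FDR of at most 5% and 10.3% lay beyond the end, and up to 2 kb 48.2% lay within 1 kb and 18% beyond the end. By the summit, which brings in 6979 peaks including ones over a TSS, values were 3.97% and 1.33% for the FDR limits, 14 tags, 558 bp, 52.5% within 1 kb, 17.3% beyond the end, 36.6% with a peak over a TSS and 5.93% small RNA. With 1 peak per gene the median was 5.95-fold and 25.4% lay beyond the end. For protein-coding genes 1.61% had an FDR of at most 5%, with 14 tags, 533 bp, 36.5% within 1 kb, 5.93% beyond the end, 17.8% with a peak over a TSS and 0.131% small RNA. Merging within 500 bp gave 528 bp. At an FDR of at most 5% only, values were 10.9-fold, 39.5 tags, 938 bp, 45.0% within 1 kb, 5% beyond the end, 23.3% with a peak over a TSS and 1.67% small RNA. The nearest edge gave 42.7% within 1 kb and 25.4% beyond the end. Plus-strand transcripts gave 43.7% within 1 kb, and minus-strand ones 21.8% and 0.900% at an FDR of at most 5%. Without the JARID2, EZH2 and KDM1A loci, without GH1, KDM1A, TOPBP1 and HIF1A, or on chromosomes 1 to 22, all 9 values stayed within their intervals. No paired analysis was possible because there was 1 ChIP library. The median of 13 tags limits single peaks.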

Other observations

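The share of peaks that were downstream peaks varied between chromosomes. It was 15.4% of 1625 peaks on chromosome 19 (95% exact interval 13.7 to 17.3), 13.0% on chromosome 22 (10.3 to 16.1), 12.8% on chromosome 17 and 12.6% on chromosome 16, against 4.90% of 5020 peaks on chromosome 4 (4.32 to 5.53).

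Downstream peaks made up 10.2% of the 570 peaks of largest fold enrichment, ties included, and 7.51% of all peaks, while peaks over a TSS made up 39.1% of those 570. Among the 100 strongest, 7 were downstream peaks, 56 lay over a TSS and 12 were upstream promoter peaks.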
